A study of Mus musculus with 2 samples.

Results

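The genes described here are the vascular endothelial growth factor (VEGF) ligands Vegfa, Vegfb, Vegfc and Pgf, the receptor tyrosine kinases Kdr (VEGFR2), Flt1 (VEGFR1) and Flt4 (VEGFR3), and the neuropilin coreceptors Nrp1 and Nrp2. These 9 genes were chosen by name and all 9 had a row among the 20140 genes of the deposited tables. All 9 were above 0 in both libraries. They were read in the 12 clusters of all cells, with both libraries together and with each library alone.

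The mice were female C57BL6/J, 14 weeks old, and the submandibular and sublingual salivary glands were taken. In the ligated group a metal clip closed the main ducts for 14 days, and in the mock group the ducts were located, left unclipped, and the mice healed for 14 days. Each group is 1 droplet library (10X Genomics) made from 2 glands, so there is no replicate spread, no difference below carries a test, and each describes these 2 libraries. Both suspensions had been depleted of cells bearing EpCAM (epithelial cells) and Ter119 (red blood cells) and of dead cells, so epithelial cells are thinned out by design in both groups.

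VEGF ligands are secreted dimers that bind receptor tyrosine kinases on endothelial cells. VEGFA acts mainly through KDR, which carries most of the growth and permeability signal, while FLT1 binds VEGFA, VEGFB and PGF and also exists as a soluble form that holds ligand away from KDR. VEGFC acts through FLT4 and is best known for lymphatic vessels. The neuropilins bind VEGF isoforms and class 3 semaphorins and assist the kinase receptors. The tables give 1 value per gene, so soluble and membrane forms could not be separated.

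Levels are means over the cells of a cluster, given as UMIs per 10000: the gene's unique molecular identifiers, each standing for 1 RNA molecule, out of 10000 in the cell. Cell numbers recovered from the tables came to 11406 ligated and 4199 mock cells. Marker lists gave the clusters their "X-like" names, and where those lists are used beside a result Kdr and Flt4 are left out of them. Endothelial-like cluster 0 held 2948 ligated and 2363 mock cells and had the highest level of Kdr, Flt1, Flt4, Nrp1 and Nrp2 with both libraries together. The second endothelial-like cluster, cluster 4 (531 ligated and 226 mock cells), carried arterial and lymphatic markers. Natural killer-like cluster 1, T cell-like cluster 2, fibroblast-like cluster 3, macrophage-like cluster 5, mural-like cluster 6 (pericytes and smooth muscle), ductal-like cluster 7 and erythroid-like cluster 10 also had at least 50 cells in each library and were compared. Cluster 10 also held endothelial markers, at a summed level of 53.7 in the mock and 56.5 in the ligated library, and macrophage markers, at 24.5 and 53.7. Clusters 8, 9 and 11 held 25, 17 and 22 mock cells, and their values stand apart at the end.

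Kdr and Flt1 lie on the same chromosome, and their upstream sequences are shown because these receptor genes had the most alike patterns among the members. On GRCm38, the build (mm10) named in the submitters' processing notes, Kdr spans chr5:75932827-75978458 and Flt1 spans chr5:147561604-147726011, both on the minus strand. The 250 bases upstream of each RefSeq start (GRCm38.p6, chr5:75978456-75978705 and chr5:147726012-147726261, minus strand, written 5′ to 3′ along the gene) follow. Capitals mark matches on either strand to the hypoxia response core (ACGTG or GCGTG) and to an ETS core (AGGAAG or CGGAAG), ETS factors being regulators of endothelial genes.
Kdr: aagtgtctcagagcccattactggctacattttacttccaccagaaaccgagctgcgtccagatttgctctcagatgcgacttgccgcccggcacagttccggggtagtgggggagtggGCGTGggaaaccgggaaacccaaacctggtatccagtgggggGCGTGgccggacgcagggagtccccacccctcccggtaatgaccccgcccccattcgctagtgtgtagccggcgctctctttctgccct
Flt1: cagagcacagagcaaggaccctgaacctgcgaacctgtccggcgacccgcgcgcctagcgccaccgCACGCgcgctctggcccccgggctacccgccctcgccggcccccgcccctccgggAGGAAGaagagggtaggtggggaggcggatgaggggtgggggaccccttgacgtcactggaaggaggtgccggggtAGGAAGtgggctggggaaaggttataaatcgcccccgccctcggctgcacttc

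The Kdr window held 2 hypoxia response cores, 131 and 89 bases upstream of the start, and no ETS core by these letters. The Flt1 window held 1 hypoxia response core, 184 bases upstream on the opposite strand, and 2 ETS cores, 129 and 53 bases upstream. Both also held the GC box GGGCGG on the opposite strand, 2 matches in Kdr and 3 in Flt1, left in lower case, and no matches of different motifs overlapped. Such short motifs are common: of 32851 windows of the same length in the table, 38.6% held a hypoxia response core, 39.2% an ETS core and 32.7% a GC box. A match is a description of the letters and not a binding site.

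Kdr was highest in endothelial-like cluster 0, at 31.2 in the mock and 16.8 in the ligated library, a difference log2((ligated + 0.1)/(mock + 0.1)) of -0.89. Flt1 stood at 47.2 in the mock and 32.3 in the ligated cells of this cluster, a difference of -0.55. Nrp1, the coreceptor of KDR for VEGFA, stood at 18.1 and 10.8, a difference of -0.74. Kdr, Flt1 and Nrp1 were thus each lower in the ligated library.

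Nrp2, a coreceptor for VEGFC and FLT4 that also binds VEGFA isoforms, went the other way in cluster 0, at 1.51 in the mock and 2.26 in the ligated library (0.55). Flt4 stood at 1.06 and 1.20 (0.17), and its mock level was also 1.06 in cluster 4. General endothelial markers moved in both directions: of the 10 other endothelial markers 3 were lower and 7 higher, and their median difference was 0.07. Among them Cdh5, the adherens junction cadherin, stood at 9.02 in the mock and 9.15 in the ligated library, Pecam1 at 14.5 and 18.3, Emcn at 23.4 and 17.1 and Eng at 13.9 and 9.07.

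None of these differences in cluster 0 was past the size rule used throughout, a higher value of at least 0.5 and a log2 difference of at least 1 in size. The rule held there for 6.6% of 3849 genes, and for 0 of the 5 members that reached 0.5. The 3849 include genes detected in only 1 library, which all pass the rule. Of the 3755 genes detected in both libraries whose higher value in cluster 0 reached 0.5, 2.26% were as low in the ligated library as Kdr or lower, 3.17% as Nrp1 and 5.89% as Flt1. Nrp2 lay on the other side, where 6.74% of genes were as high or higher. For the 319 of these that reached 5 the shares were 10.0% for Kdr, 13.2% for Nrp1 and 18.8% for Flt1.

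**Figure D1:**
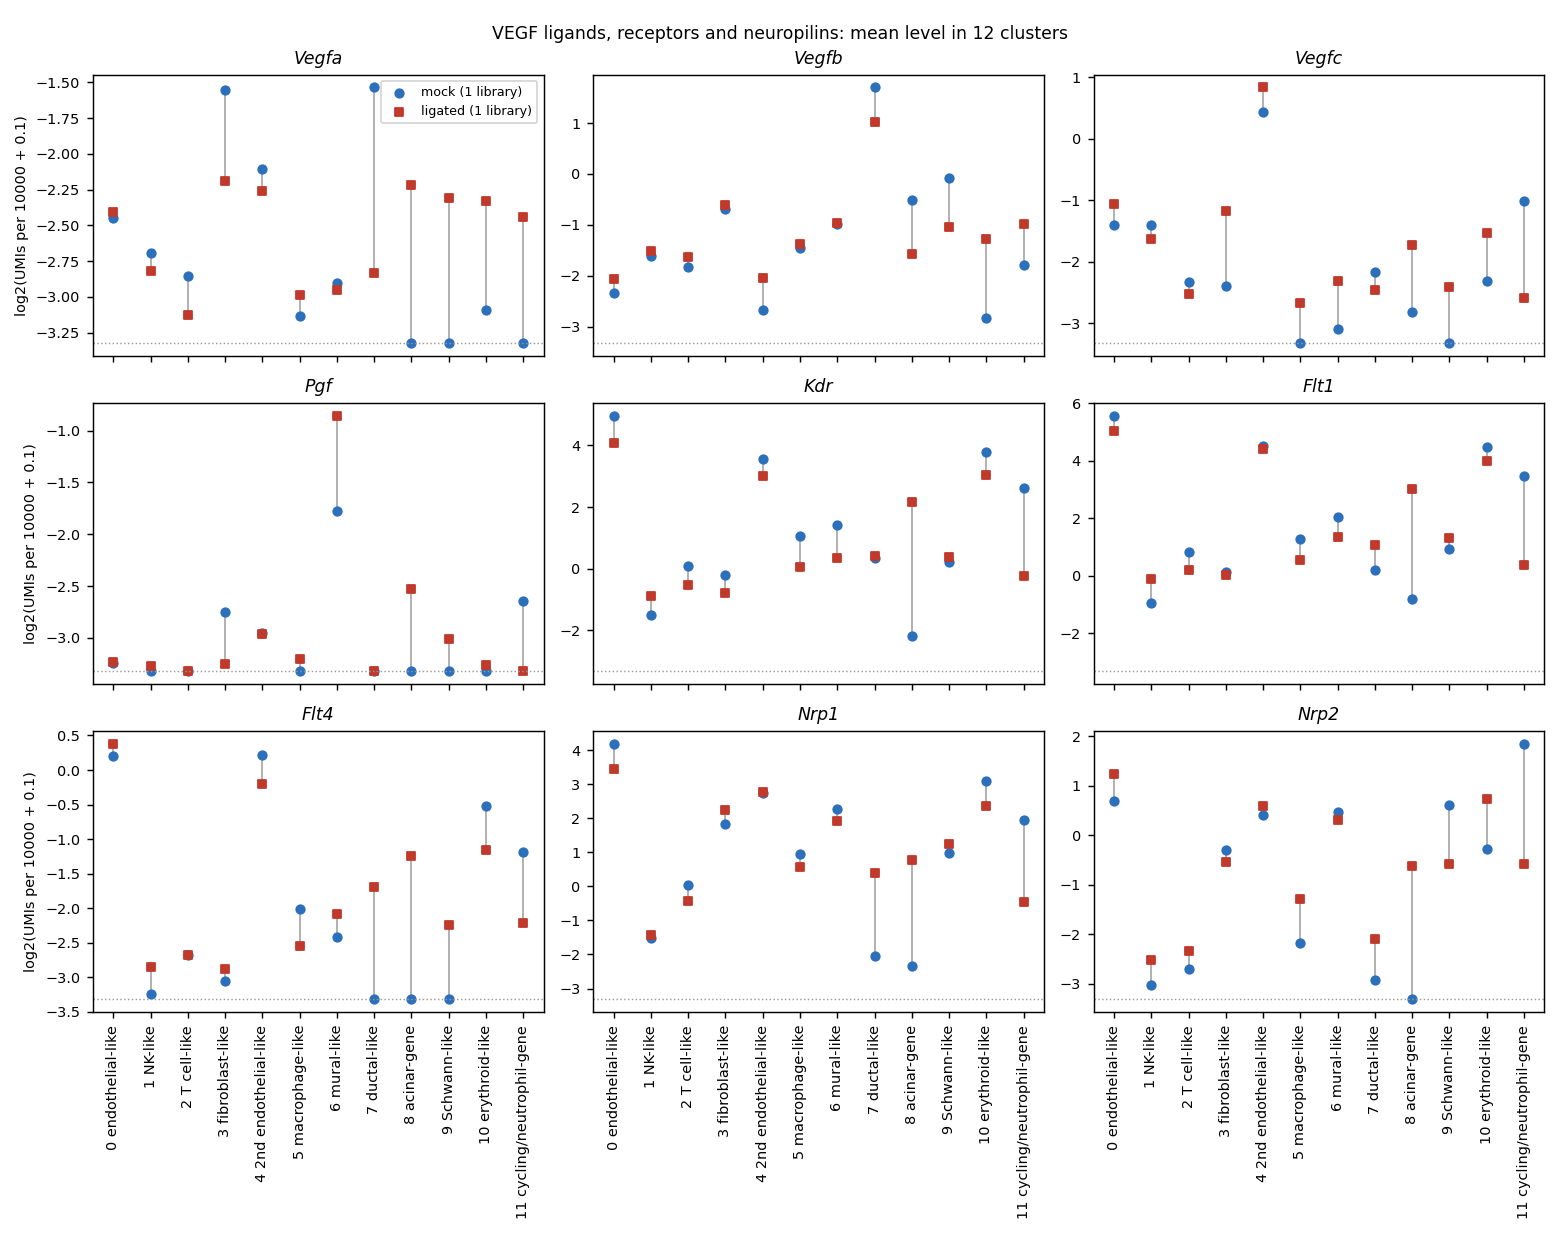
Mean level of each gene in the 12 clusters on a log2(UMIs per 10000 + 0.1) axis, with 1 point for the mock library and 1 for the ligated library per cluster; the dotted line marks a listed value of 0 and the vertical axes differ between genes. In both libraries Kdr, Flt1 and Nrp1 peak in endothelial-like cluster 0, Vegfc in cluster 4, Pgf in mural-like cluster 6 and Vegfb in ductal-like cluster 7.

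In the second endothelial-like cluster the receptors were less uniform. Kdr stood at 11.7 in the mock and 7.99 in the ligated library (-0.55) and Flt4 at 1.06 and 0.768 (-0.42). Flt1, at 22.8 and 20.9 (-0.13), Nrp1, at 6.53 and 6.77 (0.05), and Nrp2, at 1.23 and 1.40 (0.18), lay closer together. Here 9 of the 10 other endothelial markers were lower in the ligated library, with a median of -0.08. Of 7 arterial markers 5 were lower and 2 higher, with a median of -0.11. Of 6 lymphatic markers 4 were lower and 2 higher, with a median of -0.23. The part of a changed mix of these cells in the member values of this cluster was not tested. None of the 6 members that reached 0.5 passed the size rule in this cluster, where 6.1% of 3918 genes did. Whether Nrp1 differed more in cluster 0 than in cluster 4 was not tested, since each value comes from 1 library.

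Read over whole libraries the receptors differed more, and the mix of cells differed as well. Endothelial-like cluster 0 was 56.3% of the mock cells and 25.8% of the ligated cells. The library mean of Kdr was 18.8 in the mock and 5.27 in the ligated library (-1.82), that of Flt1 28.7 and 10.3 (-1.47) and that of Nrp1 11.2 and 4.10 (-1.43). With the ligated cluster values put on the mock mix of cells these differences became -0.86, -0.51 and -0.65. For Flt4 the sign turned, from -0.65 (0.675 and 0.395) to 0.14, and for Nrp2 from -0.28 (1.05 and 0.845) to 0.47. With equal weight for every cluster Flt4 gave 0.01 and Nrp2 -0.18, so the sign of Nrp2 depended on the weighting.

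The receptors were held almost wholly by the endothelial-like clusters. Clusters 0 and 4 together carried 96.7% of the summed Kdr level of the mock library and 89.4% of that of the ligated library. For Flt1 these shares were 96.7% and 90.2%, and for Flt4 96.5% and 87.7%. Nrp1 was spread more widely, with 94.2% and 75.8%, and so was Nrp2, with 87.6% and 77.0%.

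**Figure D2:**
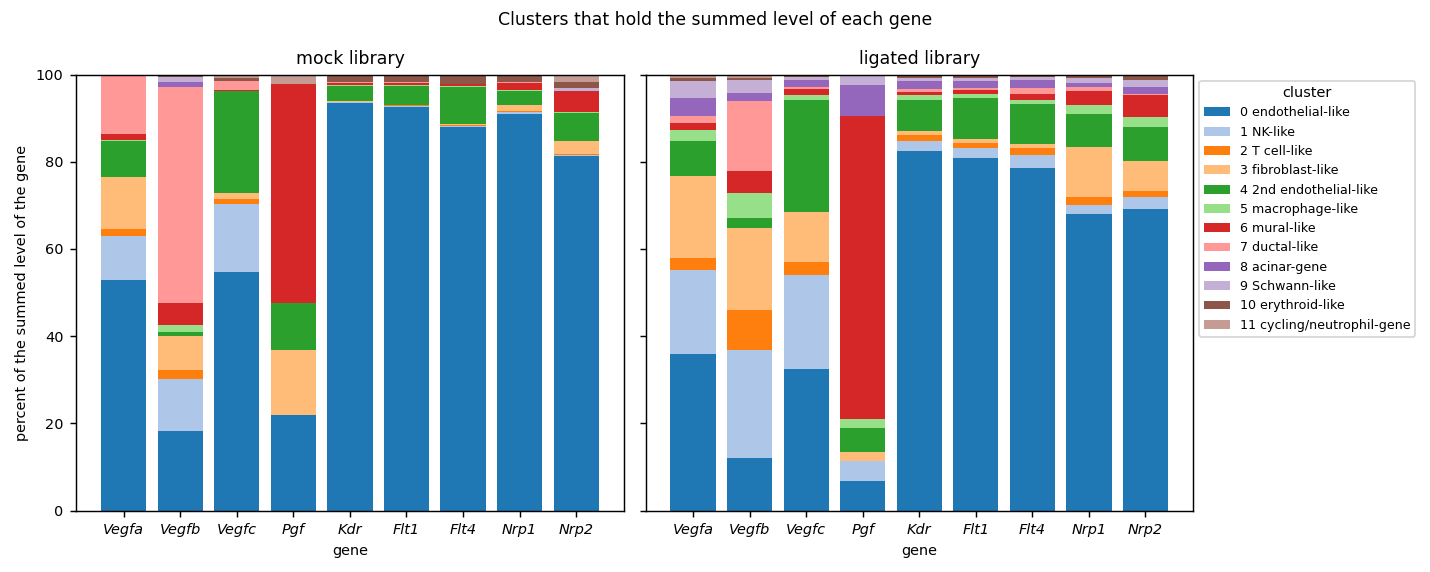
Share of the summed level of each gene (cluster value times number of cells) held by each of the 12 clusters, in percent, in the mock library (left) and the ligated library (right). Cluster 0 holds 93.4% of Kdr in the mock and 82.4% in the ligated library, whereas mural-like cluster 6 holds 50.4% and 69.5% of Pgf and ductal-like cluster 7 holds 49.4% and 15.9% of Vegfb.

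Among the compared clusters that were not endothelial-like, and apart from cluster 10, the neuropilins were highest in the fibroblast-like and mural-like clusters. In fibroblast-like cluster 3 Nrp1 stood at 3.49 in the mock and 4.64 in the ligated library (0.40), and Nrp2 at 0.717 and 0.591 (-0.24). In mural-like cluster 6 Nrp1 stood at 4.75 and 3.65 (-0.37) and Nrp2 at 1.29 and 1.15 (-0.16). The fibroblast-like share of the summed Nrp1 level was 1.39% in the mock and 11.4% in the ligated library, alongside 4.48% and 10.1% of the cells. In a separate clustering of cells with Pdgfra, Pdgfrb or Gli1, the mural-like cells had 4.15 in the mock and 4.16 in the ligated library for Nrp1 and 1.48 and 1.08 for Nrp2.

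Kdr and Flt1 in most of these other clusters were close to what markers of foreign cell types showed. In a droplet library free RNA of abundant cells enters every droplet, and markers of other cell types give its scale. Among fibroblast-like cells the median marker was at 3.26% of their library mean in the mock and 9.97% in the ligated library, and Kdr stood at 4.12% and 9.04%. In natural killer-like cluster 1 the markers stood at 2.20% and 7.15%, and Kdr at 1.36% and 8.40%. Nrp1 in the fibroblast-like cluster, at 31.2% and 113% of its library mean, and Nrp2, at 68.6% and 69.9%, stood far above the markers. In macrophage-like cells Nrp1 was at 16.3% in the mock and 33.5% in the ligated library, above markers at 10.5% and 20.7%. In T cell-like cells it was at 8.38% and 15.7%, above markers at 3.43% and 8.43%. Erythroid-like cluster 10, which also held endothelial markers, was unlike the others. Its Kdr stood at 13.6 in the mock and 8.07 in the ligated library (-0.75), which is 72.4% and 153% of the library mean. The markers there stood at 1.02% and 17.7%. Flt1 was at 22.3 and 15.6 (-0.51) and Nrp1 at 8.46 and 5.04 (-0.73) in that cluster.

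**Figure D3:**
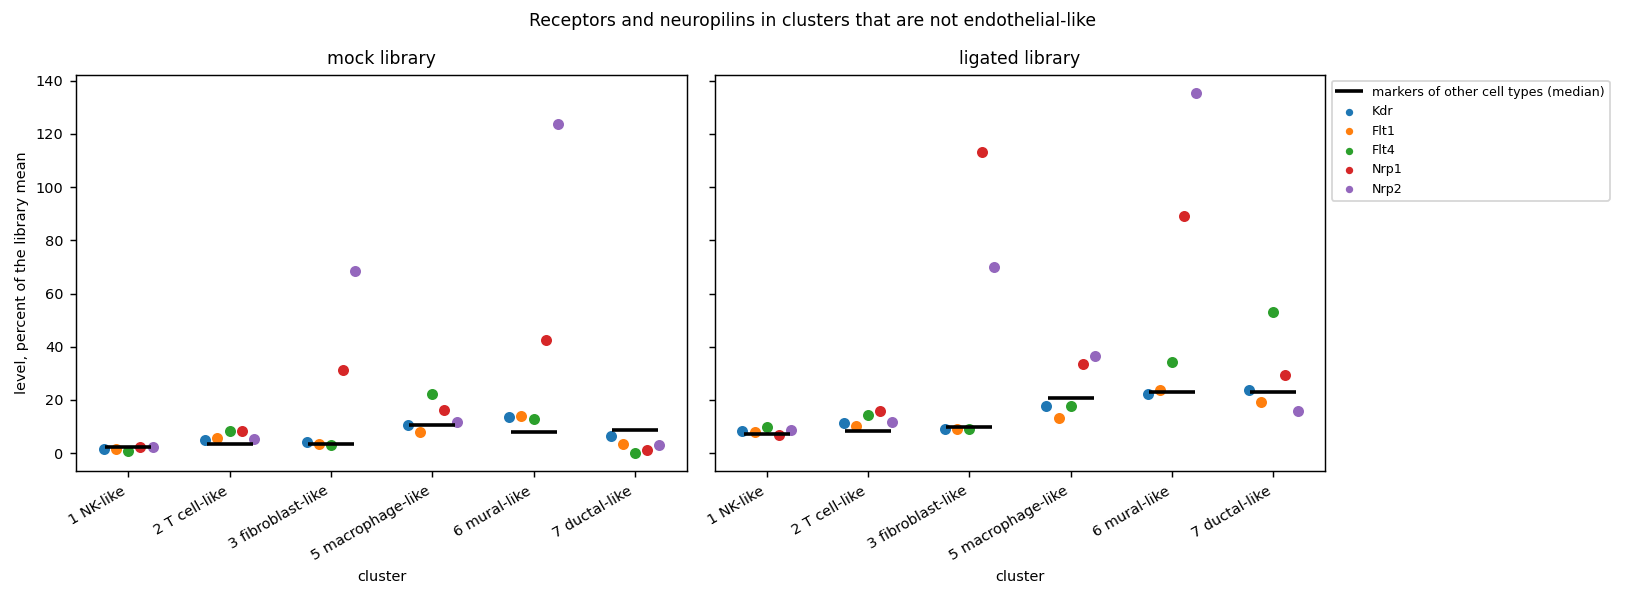
Level of the receptors and neuropilins in 6 clusters that are not endothelial-like, in percent of the gene's mean over the library, for the mock (left) and ligated (right) library; the black bar is the median of markers of other cell types in the same cluster. Kdr and Flt1 lie near the bars in most clusters, while Nrp1 and Nrp2 lie above them in the fibroblast-like and mural-like clusters of both libraries. Erythroid-like cluster 10 is not drawn.

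The size rule was met by 4 of the 36 pairs of a member and a cluster with a higher value of at least 0.5 (of 81 pairs in all), which is 11.1%. Over all genes and the same 9 clusters it was met by 11.1% of pairs (4.17% lower and 6.89% higher in the ligated library). The share over all genes, here and per cluster, includes genes detected in only 1 library, which pass wherever they reach 0.5. All members were detected in both libraries, so the shares are not over like genes. In natural killer-like, T cell-like and fibroblast-like cells only 1, 3 and 5 members reached 0.5, and none passed. The share of all genes there was 4.56%, 5.34% and 9.78%. Kdr was lower in macrophage-like cluster 5 (1.98 in the mock and 0.929 in the ligated library, a log2 difference just past 1, where 8.48% of genes passed and 4.34% passed as lower) and in mural-like cluster 6 (2.55 and 1.18, -1.05, where 9.41% passed and 4.5% as lower). In macrophage-like cells Kdr was near the marker scale in both libraries, at 10.5% of its library mean in the mock, where foreign markers were at 10.5%, and at 17.6% against 20.7% in the ligated library. In mural-like cells it was above that scale in the mock, at 13.6% against 8.06%, and near it in the ligated library, at 22.4% against 22.9%. In the mural-like cells of the separate clustering Kdr stood at only 0.139 in the mock and 0.230 in the ligated library, so the Kdr difference of cluster 6 had the opposite sign there.

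Nrp1 was higher in ductal-like cluster 7 of the ligated library (0.144 and 1.20, 2.42, where 26.5% of genes passed and 14.8% as higher). By the median recovered UMI total of that cluster this rests on about 3 mock and 34 ligated UMIs, and at 29.2% of the library mean the ligated value was near the 22.9% of foreign markers. Nrp2 was higher in erythroid-like cluster 10 (0.727 and 1.57, 1.02), where 25.2% of genes passed, 23% as higher, and the median difference of genes reaching 0.5 was 0.56. In that cluster 10 of 10 macrophage markers with a value were higher in the ligated library, 7 of them past the rule, and 7 of 7 erythroid markers were lower; their part in the Nrp2 value was not tested. After each value was lowered by the marker scale, both Nrp1 in cluster 7 and Nrp2 in cluster 10 missed the rule, in different ways. Nrp1 fell below the minimum level, at 0.261 in the ligated library, though its difference was still 1.85. Nrp2 fell short in size, at 0.90.

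**Figure D4:**
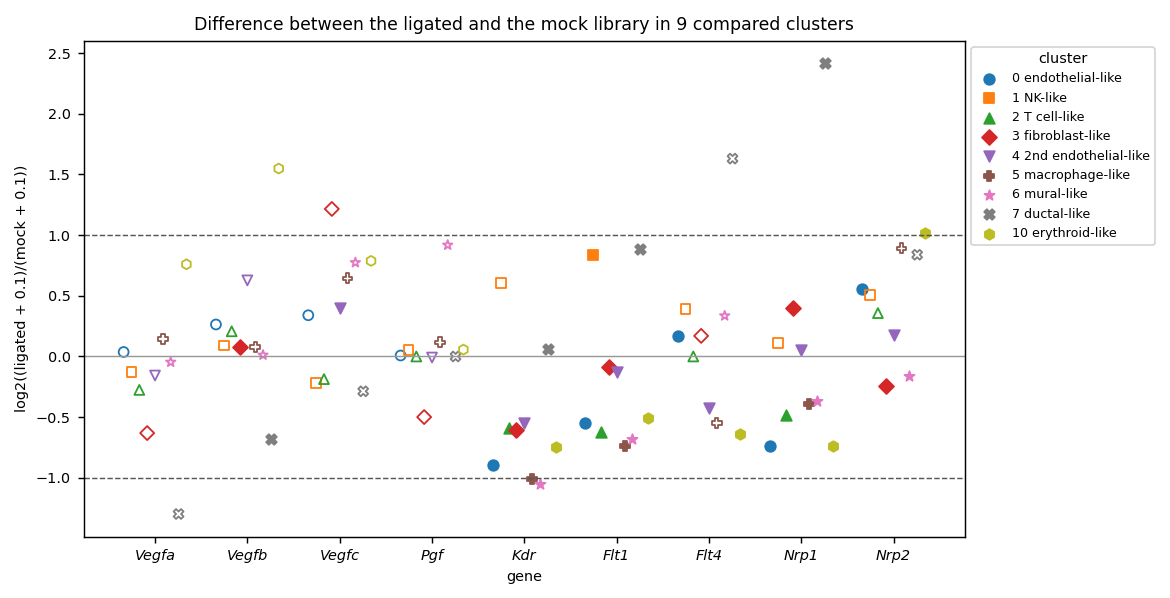
Difference log2((ligated + 0.1)/(mock + 0.1)) of each gene in the 9 compared clusters; filled symbols have a higher value of at least 0.5, open symbols do not, and dashed lines mark a size of 1. Kdr and Flt1 are each below 0 in 7 of 9 clusters, but clusters of 1 library share its free RNA and are not separate observations. The 4 filled symbols past a line are Kdr in clusters 5 and 6, Nrp1 in cluster 7 and Nrp2 in cluster 10.

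Among the ligands, Vegfc was highest in the second endothelial-like cluster, at 1.25 in the mock and 1.69 in the ligated library (0.40). It stood at 0.280 and 0.381 in cluster 0 (0.34). In natural killer-like cells the values were 0.278 and 0.224 (-0.22). In fibroblast-like cells Vegfc stood at 0.0902 in the mock and 0.342 in the ligated library, a difference of 1.22 below the minimum level of the size rule, from about 22 and 560 UMIs. The fibroblast-like cells of the separate clustering, which may include the same cells, gave 0.0796 and 0.333. The fibroblast-like share of the summed Vegfc level was 1.40% in the mock and 11.3% in the ligated library.

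Vegfa, the main ligand of KDR, was at most 0.245 in any compared cluster of either library. Its highest mock values were 0.240 in fibroblast-like and 0.245 in ductal-like cells, against 0.120 (-0.63) and 0.0403 (-1.30) in the ligated library. The ductal-like values rest on about 5 and 1 UMIs, since these cells had a median recovered total of 1082 UMIs in the mock and 1012 in the ligated library. In cluster 0 Vegfa stood at 0.0834 and 0.0881 (0.04), from about 165 and 221 UMIs. The Vegfa values of the 2 libraries lay close together in this cluster, where Kdr, Flt1 and Nrp1 were lower. They are RNA values of cluster 0 alone and do not show how much VEGFA reached its cells.

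Vegfb, a ligand of FLT1 associated with tissues of high oxidative metabolism, was highest in ductal-like cluster 7, at 3.16 in the mock and 1.94 in the ligated library (-0.68). The ductal markers of that cluster went the other way, 9 of 10 higher in the ligated library and 7 past the rule (summed level 374 and 961), and the macrophage markers stood at 0.566 and 6.50; their part in the Vegfb value was not tested. Both libraries had similar Vegfb in fibroblast-like cells, at 0.518 and 0.553 (0.08), and in mural-like cells, at 0.407 and 0.411 (0.01). In cluster 0 it stood at 0.0986 and 0.138 (0.26). Placental growth factor, Pgf, a ligand of FLT1, was highest in mural-like cluster 6, at 0.193 in the mock and 0.453 in the ligated library (0.92), from about 20 and 96 UMIs. In that cluster 11 of 11 mural markers were lower in the ligated library, and 4 of 4 myoepithelial markers with a value were higher, 2 past the rule (summed level 1.22 and 4.77); their part in the Pgf value was not tested. The separate clustering gave 0.192 and 0.296 for Pgf in mural-like cells. Pgf was at most 0.0482 in either library in the other compared clusters, and was listed at 0 in both libraries in T cell-like and ductal-like cells.

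The other genes of the pathway were read from 5 lists holding 81 genes, of which 80 had a row. In cluster 0, genes induced by VEGF in endothelial cells split. Of 17 such genes 9 reached 0.5, and of these 2 passed the size rule as lower and 3 as higher. Of all genes that reached 0.5 there, 6.6% passed. The median of the 15 list genes with a mean of at least 0.05 was 0.13, against 0.05 for all genes at that minimum. Esm1, a marker of endothelial tip cells, stood at 1.98 in the mock and 0.800 in the ligated library (-1.21). Pdgfb, the ligand that recruits pericytes, stood at 8.23 and 3.31 (-1.29). Insr, the insulin receptor, was higher, at 0.628 and 2.52 (1.85), and so were the Notch feedback gene Nrarp, at 0.163 and 0.561 (1.33), and Dll4, the Notch ligand of tip cells, at 0.308 and 0.827 (1.18). Dll4 falls outside the rule for naming genes and was chosen after its values were seen. In cluster 4 Esm1 was again lower, at 1.36 and 0.380 (-1.60). It was the 1 gene past the rule of the 10 on this list that reached 0.5, where 6.1% of all genes passed.

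Of the 31 genes of VEGF receptor signalling and trafficking, 20 reached 0.5 in cluster 0 and 20 in cluster 4. In these clusters 0 of them passed the size rule, where 6.6% and 6.1% of all genes did. The list medians were -0.04 over 25 genes and -0.07 over 26 genes, those with a mean of at least 0.05. Ptprb, a phosphatase that restrains KDR, stood at 17.8 in the mock and 18.5 in the ligated cells of cluster 0, and Plcg1, the phospholipase that binds KDR, at 1.27 and 1.18. Cav1, the caveolar protein, was lower in fibroblast-like cells (0.583 and 0.185, -1.26) and in mural-like cells (4.80 and 2.30, -1.03). Of the 9 genes of hypoxia sensing, 0 passed in any compared cluster, but few reached the minimum level of the rule. Their number ran from 1 in natural killer-like cluster 1 to 5 in fibroblast-like cluster 3. The share of all genes that passed ran from 4.56% in cluster 1 to 26.5% in ductal-like cluster 7. With so few genes, a count of 0 in a single cluster does not set this list apart from all genes. Epas1, which encodes the endothelial hypoxia-inducible factor HIF2A, was lower without passing, with 8.54 in the mock and 6.27 in the ligated cells of cluster 0 (-0.44), and with 16.3 and 8.53 in cluster 4 (-0.93).

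**Figure D5:**
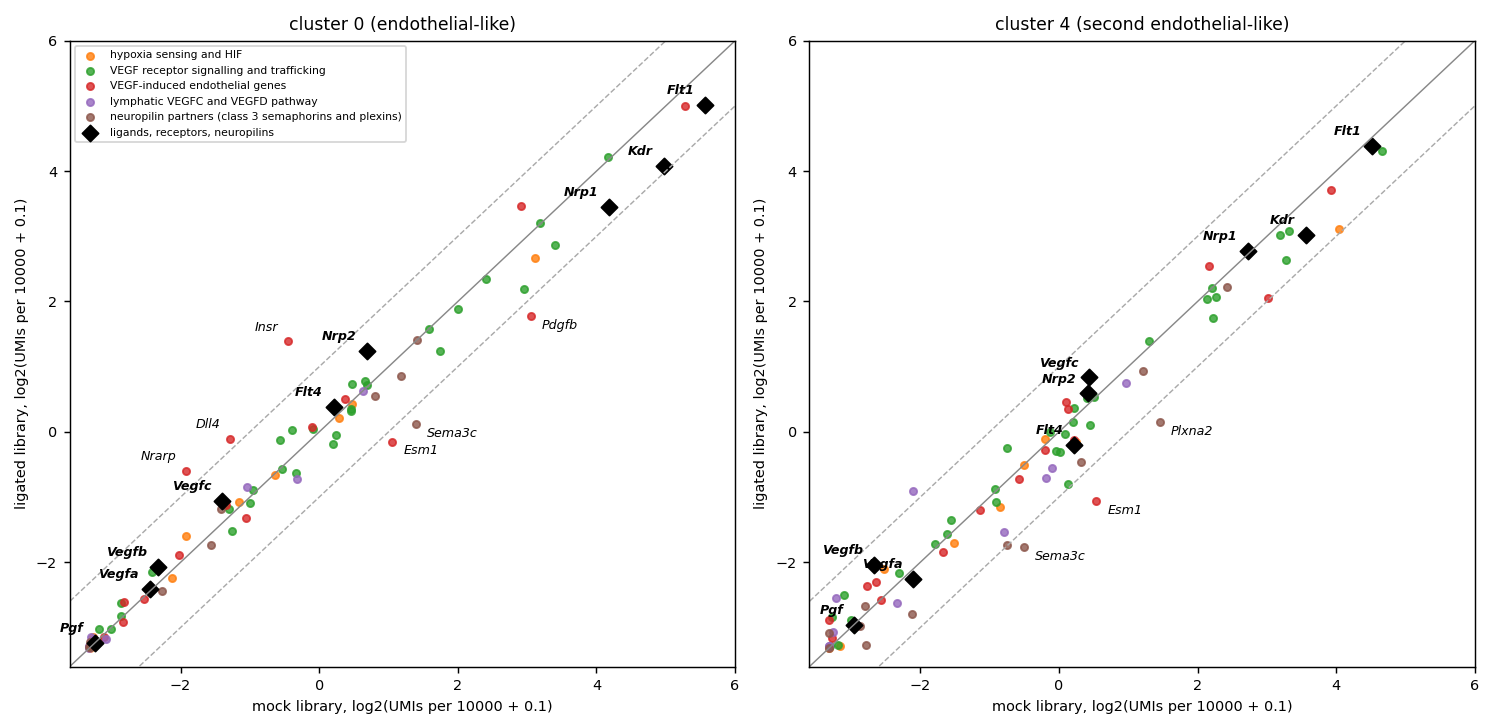
Level of the 9 genes (black diamonds) and of 80 pathway genes in 5 lists (coloured points) in the mock library (horizontal) and the ligated library (vertical), as log2(UMIs per 10000 + 0.1), in endothelial-like clusters 0 and 4; the solid line marks equal values and the dashed lines a log2 difference of 1. Kdr, Flt1 and Nrp1 lie below the solid line in cluster 0, and genes named in plain italics are past the size rule.

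Of the 12 neuropilin partners, 4 reached 0.5 in cluster 0, 5 in cluster 4 and 3 in fibroblast-like cells. Of these 1, 2 and 1 passed the size rule, each lower in the ligated library. Of all genes 6.6%, 6.1% and 9.78% passed there in either direction. Sema3c was past the rule in each of these clusters, so the calls are largely of 1 gene. Sema3c, a secreted semaphorin that binds neuropilins, stood at 2.52 in the mock and 0.982 in the ligated cells of cluster 0 (-1.28), with 0.608 and 0.194 for cluster 4 (-1.27) and 1.09 and 0.256 for fibroblast-like cells (-1.75). Plxna2, a signalling partner of the neuropilins, stood at 2.63 and 1.01 in cluster 4 (-1.30). Over the list genes with a mean of at least 0.05, the median was -0.18 in cluster 0 (7 genes) and -0.72 in cluster 4 (8 genes). For all genes at that minimum it was 0.05 and 0.03. Plxnd1 stood at 2.55 in both libraries in cluster 0.

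Of the lymphatic genes around Vegfc, 3 reached 0.5 in fibroblast-like cells and 1 of them passed, where 9.78% of all genes did. Ccbe1, the matrix protein that helps process VEGFC into its active form, stood at 0.249 in the mock and 0.703 in the ligated library (1.20), beside the Vegfc values given above. Vegfd, the other ligand of FLT4, stood at 0.265 and 0.0361 (-1.42) in these cells, below the minimum level of the rule. The fibroblast-like clusters of the 2 libraries also differed in fibroblast markers, whose median difference was -0.41 with 6 of 11 lower, and in macrophage markers, of which 6 of 6 with a value were higher in the ligated library (summed level 0.264 and 2.46). The part of these shifts in the Vegfc, Ccbe1 and Vegfd values was not tested.

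In fibroblast-like cells 3 genes of the VEGF-induced list reached 0.5 and 2 of them passed as lower, where 9.78% of all genes passed. Cd34, a sialomucin carried by endothelial cells and by adventitial fibroblasts, stood at 7.47 in the mock and 1.38 in the ligated library (-2.36). Adm, which encodes adrenomedullin, stood at 0.578 and 0.213 (-1.11). In mural-like cells Mcam, an adhesion molecule, was lower (2.34 and 0.807, -1.43). Of the 11 mural markers 11 were lower in the ligated cells of cluster 6 as well, with a median of -0.66.

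The genes whose pattern over the 24 columns (12 clusters in 2 libraries) was most like that of each member were named by Pearson correlation of log2(value + 0.1) among 4607 genes. Columns of 1 library share its free RNA, so the correlations are descriptions. Kdr was nearest to Flt1 (0.99), Cd300lg (0.98) and Podxl (0.97), and Flt1 to Kdr (0.99), Emcn (0.98) and Plvap (0.98). Flt4 was nearest to Rapgef4, Kank3 and Ceacam1 (0.98, 0.97 and 0.97), Nrp1 to Asap1, Pqlc1 and Dlc1 (0.95, 0.94 and 0.93) and Nrp2 to Plxnd1, Col4a1 and Igfbp7 (0.93, 0.92 and 0.91). Vegfc was nearest to Car7, Mecom and Nck1 (0.83, 0.82 and 0.79), and Vegfb to Anapc13, Phyh and Mpc1 (0.93, 0.91 and 0.91). Over the 12 joint columns alone 2 of the 3 genes nearest to Flt1 stayed among its nearest 3, 1 of 3 for Vegfb, Vegfc and Nrp2, and 0 of 3 for Kdr, Flt4 and Nrp1. Kdr was then nearest to Rbp7, Gpihbp1 and Emcn. Vegfa and Pgf did not reach a joint level of 1 in any cluster and were not placed.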

How the data were processed

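Single-cell RNA of 1 ligated and 1 mock library was deposited as tables of cluster means. Per the submitters' processing notes the tools were Cell Ranger 6.0.1 and Seurat with mm10; filters, annotation release and clustering are not given in the sources used here. The authors' deposited values (unit other, neither counts nor CPM) are linear means of UMIs per 10000 per cell: every column sums to 10000, and joint values are weighted means of the split values (largest residual 9.2e-08). Calendar dates had replaced 21 gene names, restored from the row order. Of all value columns, 0 were without a sample.

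Cell numbers were the smallest whole numbers meeting those weights (tolerance 2e-09), multiplied where single-UMI genes allowed. This step and the size rule were tried on simulated data with large changes and no added free RNA. Differences near the limit of the rule were not covered. Median UMI totals come from cells that hold a gene seen in 1 cell, which favours deep cells, so UMI numbers are approximate. A value of 3 UMIs at these totals was at most 0.0349 in clusters 0 to 6 and 0.138 in cluster 7. Differences used a pseudocount of 0.1, which understates low genes. Foreign markers entered with a library mean of at least 0.2 in both libraries; subtraction used their median. Doublets were not removed here. With 1 library per group no test was made.

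Named were all members, pathway genes past the size rule in endothelial-like, fibroblast-like or mural-like clusters (at most 4 per list and cluster), and the 3 most similar genes. Other pathway genes and markers named were chosen after their values were seen, as was the ETS motif. Members and lists were chosen with earlier results of these data known. Python 3.11.15, pandas 2.3.3, numpy 2.4.6 and matplotlib 3.10.9 were used.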

Additional observations from a re-analysis of the deposited data

How the results depend on the processing

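No paired analysis was possible because each group is 1 library. In cluster 0 the Kdr, Flt1, Nrp1 and Nrp2 differences kept their direction and stayed short of the size rule with pseudocounts of 0.01 and 1, after subtraction of the library mean profile and after centring on all genes. In endothelial-like cluster 3 of the Pdgfra, Pdgfrb and Gli1 subset, an alternative chosen after seeing the data, Kdr (-1.45), Flt1 (-1.01) and Nrp1 (-1.07) passed it as lower and Vegfc (1.38) as higher. Nrp2 gave 0.10, and Flt4 (-0.04), Vegfa (-0.23) and Pgf (-0.25) changed sign. The cause was not tested. That cluster held 260 ligated and 82 mock cells. The share of all genes past the rule was not computed there, so these calls do not set the members apart from all genes. Equal weight for every cluster gave library mean differences of -0.68 for Kdr, -0.38 for Flt1 and -0.36 for Nrp1, and the mock mix -0.86, -0.51 and -0.65.

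All 4 calls lay outside the endothelial-like clusters. A pseudocount of 1 gave -0.63 for Kdr in cluster 5, -0.71 for Kdr in cluster 6, 0.94 for Nrp1 in cluster 7 and 0.57 for Nrp2 in cluster 10. Subtraction gave -0.14, -3.50, 1.85 and 0.90 for these, and centring gave 0.63 for Nrp2. In the subset's mural-like cells Kdr reversed to 0.47. The 2 lower pairs became 0 with a pseudocount of 1, 3 after subtraction or without a minimum, 5 after centring, 1 when the minimum was 2 and 13 at a size of 1.5-fold. The 2 higher pairs became 0 with a pseudocount of 1, after subtraction and at a minimum of 2, 1 after centring, 5 without a minimum and 4 at 1.5-fold. In cluster 0, 2 members passed at 1.5-fold. The share of all genes that passed under these changed settings is not given, so these counts do not set the members apart from all genes. Of 314 other values under these settings, 286 stayed on their side, 22 moved and 6 came to pass the rule.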

Other observations

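Clusters 8, 9 and 11 held too few mock cells to compare, and their values are listed without a comparison. In Schwann-like cluster 9 (17 mock and 271 ligated cells) Nrp1 was at 1.86 in the mock and 2.29 in the ligated cells, Nrp2 at 1.44 and 0.565 and Vegfb at 0.852 and 0.384. In cluster 8, led by acinar genes (25 and 264 cells), Kdr was at 0.122 and 4.39 and Flt1 at 0.464 and 7.92, and the median marker of other cell types was at 2.54% and 105% of its library mean. In cluster 11 (22 and 59 cells), led by cycling genes and in the mock cells also by neutrophil genes, Nrp2 was at 3.51 and 0.569 and Nrp1 at 3.79 and 0.623. Its neutrophil markers had a summed level of 36.6 in the mock and 0.00509 in the ligated cells. Its endothelial markers stood at 54.3 and 8.19. Their part in the Nrp1 and Nrp2 values was not tested.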
